A study of Mus musculus with 8 samples.

Results

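Transcripts of the EGF family, 6 ligand genes (Areg, Ereg, Hbegf, Tgfa, Btc and Nrg1) and 3 receptor genes (Egfr, Erbb2 and Erbb3), were measured in mouse embryonic fibroblasts (MEFs) with and without the Hippo pathway kinase Lats2. The genes were chosen by name: every gene probe that the scanner files assign to 1 of these 9 genes was taken, which gave 26 probes of the 41174 on the array, for 9 of 27745 gene names. MEFs are cells grown out of embryos. A Lats2-/- and a Lats2+/+ culture came from each of 3 litters, numbered 112, 116 and 121, all of strain C57BL/6J, grown in DMEM with fetal bovine serum and left without treatment. The Lats2-/- cultures carry the clone names 112-C, 116-D and 121-E, and the Lats2+/+ cultures 112-K, 116-H and 121-C, so each genotype is represented by 1 culture per litter and the embryos' age and sex are not given in the sources used here. How the Lats2 allele was made is likewise not given in those sources. Both extracts of a litter were hybridised together on 2-colour arrays, with 2 dye-swapped arrays each for litters 112 and 116 and 4 for litter 121. The litter is the replicate (n = 3), and its value is the mean log2 ratio of Lats2-/- over Lats2+/+ over its arrays.

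EGF family ligands are made as membrane-anchored precursors and are released by metalloproteases of the ADAM family. They bind receptor tyrosine kinases of the ErbB family, which dimerise and pass the signal to RAS, ERK and PI3K. Amphiregulin, epiregulin, HB-EGF, TGF-alpha and betacellulin bind EGFR, some of them ErbB4 as well, whereas neuregulin 1 binds ErbB3 and ErbB4. ErbB2 has no known ligand and acts as the partner of the others. Areg is widely known as a target of YAP, the coactivator that LATS kinases phosphorylate and hold back, and fibroblasts are known to carry EGFR.

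The 8 arrays lie on 2 slides, litters 112 and 116 on one and litter 121 on the other, so slide cannot be told apart from litter 121. A channel showed 52.9% to 61.3% of its gene probes above background. Lats2 itself has 4 probes. An upstream probe was lower in the Lats2-/- extract of each litter (by log2 ratio, -1.33 in litter 112, -1.05 in litter 116 and -0.56 in litter 121). The other 3 were lower in litters 112 and 116 but higher in litter 121, against its label, by 0.80 to 1.17. The brightest of them had ratios of -0.26, -0.70 and 1.17. Which probes lie outside the removed part is not known here, and Lats2-/- below means the extract so labelled. Ctgf and Cyr61, both known as YAP targets, had mean log2 ratios of 1.47 ± 0.26 and 1.35 ± 0.61 (SD, n = 3 litters), each above 0 in every litter, as was Ankrd1 (3.75 ± 0.95). Amotl2 (0.32 ± 0.45) and Axl (0.07 ± 0.83), of the same list of 5, did not keep 1 sign. Of 13 fibroblast markers, 11 were well above background in all 6 extracts, but the cultures of a litter differed in them. Dcn had log2 ratios of 3.26, 6.22 and -1.94, Col3a1 0.13, 3.70 and -3.42, and Thy1 -0.38, 2.05 and -3.66. Pdgfra had 0.90, 0.13 and -4.96 and in litter 121 its Lats2-/- signal was not above background. Of 33 markers of 6 other cell types, 5 were above background in all 6 extracts, 11 in some and 17 in none. The 5 were Lyz2, Actc1, Tubb3 and the mesothelial markers Msln (1.52, 2.03 and 1.91) and Krt7 (0.43, -0.90 and -1.02). Among the 17 were Epcam, Esrp1, Grhl2, Ptprc, Pecam1, Cdh5, Gfap, Myod1 and Wt1.

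RefSeq promoter windows were on hand for 5 of the 9 genes, and 3 of them are shown because these genes stand for the contrast in the results: Egfr with the largest litter ratios, Areg with a difference in litter 121, and Erbb2 as a receptor that differed little. Each is the 250 bases before the transcription start on GRCm38.p6, plus strand, with motif matches in capitals: Egfr at chr11:16751953-16752202, Areg at chr5:91139349-91139598 and Erbb2 at chr11:98412234-98412483.
Egfr: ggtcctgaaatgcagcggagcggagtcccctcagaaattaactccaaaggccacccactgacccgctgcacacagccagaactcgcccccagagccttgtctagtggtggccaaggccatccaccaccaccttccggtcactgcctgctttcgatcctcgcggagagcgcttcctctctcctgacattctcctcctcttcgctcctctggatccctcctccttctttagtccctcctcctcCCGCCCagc
Areg: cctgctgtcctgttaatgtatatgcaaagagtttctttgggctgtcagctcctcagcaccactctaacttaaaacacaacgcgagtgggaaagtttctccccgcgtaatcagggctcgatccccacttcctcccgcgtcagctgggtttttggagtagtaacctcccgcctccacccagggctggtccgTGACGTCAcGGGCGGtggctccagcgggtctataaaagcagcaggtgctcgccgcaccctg
Erbb2: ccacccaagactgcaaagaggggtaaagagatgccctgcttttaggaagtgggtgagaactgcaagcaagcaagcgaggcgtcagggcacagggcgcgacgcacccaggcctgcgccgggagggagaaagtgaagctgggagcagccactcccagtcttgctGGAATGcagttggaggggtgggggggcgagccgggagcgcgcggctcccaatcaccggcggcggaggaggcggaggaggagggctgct

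Searched on both strands were the TEAD core GGAATG, bound by the partners of YAP, the AP-1 site TGACTCA, the cAMP response element TGACGTCA and the GC box GGGCGG. The TEAD core was found in the Erbb2 window, starting 88 bases before the start, and in 12.6% of all 32851 windows. Areg held a cAMP response element 61 bases before the start (1.55% of windows hold it) and, without overlap, a GC box at 52 bases, a motif in 32.7% of windows. Egfr held a GC box on the opposite strand at 9 bases. No AP-1 site, found in 4.46% of windows, lay in any of the 5. These are matches of letters, and nothing about binding follows from them.

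Of the 9 genes, 8 had a probe well above background in at least 2 of 3 extracts of a genotype, against 14791 of all 27745. Of the 26 probes 17 did, against 55.0% of all probes. Erbb3 and Ereg count among the 8 through probes whose limits are given below. None of these 8 passed an adjusted p of 0.05 in limma, nor did any of the 22642 probes tested (0%), and at an unadjusted p under 0.05 the count was 0 of 8 genes against 1549 probes (6.84%). At the study's threshold, a ratio of 2-fold or more and an unadjusted p under 0.05, 0 of 8 genes passed against 0.835% of probes. None kept 1 sign in all 3 litters, which 29.7% of probes did. Within single litters, Egfr was at least 2-fold higher in litter 116 (1 of 8 genes, background 7.71%), and no gene reached 2-fold in litter 112 (background 3.77%) or 121 (background 6.09%). These counts turned with the processing. A smaller normexp offset of 16 gave 0 genes in litter 112 (background 5.13%), 2 in litter 116 (background 10%) and 2 in litter 121 (background 7.56%), and the scanner software's processed signals gave 2 (background 10%), 3 (background 16%) and 5 (background 11.2%). The smallest unadjusted p of the genes' brightest probes was 0.246 in limma, for Egfr, which 7018 probes lay below. In these bulk extracts, fewer cells that make a transcript and less of it per cell cannot be told apart.

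**Figure D1:**
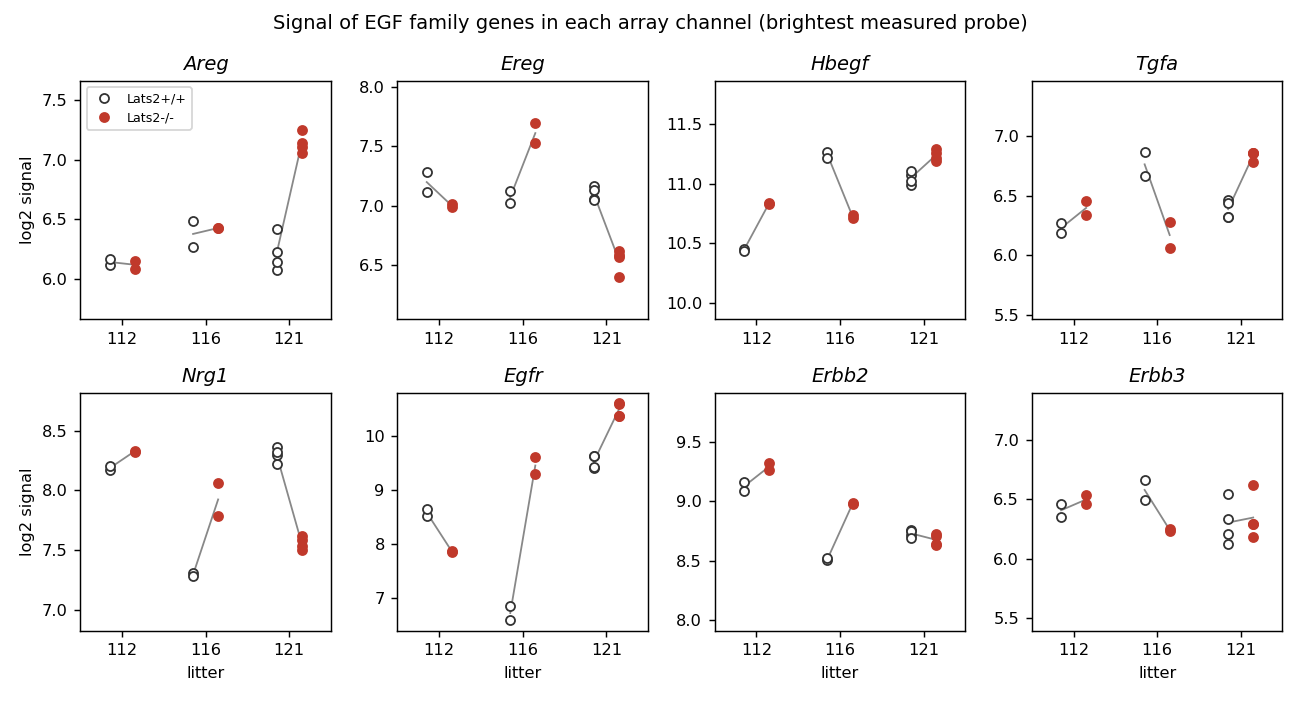
Log2 signal of the brightest measured probe of 8 genes (each panel has its own axis range) in Lats2+/+ (open) and Lats2-/- (filled) channels by litter, 1 point per array, with a line joining the means of the litter. In no panel do the lines slope the same way in all 3 litters, and Egfr spans the widest range.

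Egfr, the main receptor for most of these ligands, had the largest differences in the main processing. Under an offset of 16 its ratio in litter 121 was 1.01, against 1.43 for Areg. Its brightest probe (A_52_P106259, transcript NM_207655, chromosome 11, 16813815 to 16813874 in mm8, 10 repeat spots) had log2 signals of 7.86, 9.46 and 10.50 in Lats2-/- extracts (litters 112, 116 and 121, in that order throughout) and of 8.58, 6.71 and 9.53 in the Lats2+/+ extracts. The lowest of the 6 was the Lats2+/+ extract of litter 116 and the highest the Lats2-/- extract of litter 121, and the genotypes overlapped. In order, the Lats2+/+ extract of litter 121 (9.53) and the Lats2-/- extract of litter 116 (9.46) differed by less than the spread between arrays of an extract. The litter ratios were -0.72, 2.75 and 0.97, averaging 0.998 ± 1.73 (SD over 3 litters, n = 3), with a 95% interval from limma of -1.06 to 3.06 and adjusted p = 0.793. Leaving out litter 112, the only one with a ratio below 0, gave a mean of 1.86. This met the study's 2-fold threshold (unadjusted p of 0.0468 in limma, adjusted p = 0.890), as did 352 of 22642 probes in that run. Leaving out litter 116 gave 0.12.

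The pattern was shared by the other Egfr probes. All 5 probes above background were lower in litter 112 (ratios from -0.72 to -0.19, 0 of 10 array values above 0), higher in litter 116 (0.93 to 2.75, 10 of 10) and higher in litter 121 (0.58 to 0.97, 20 of 20). They lie between 16783545 and 16817689 and belong to the transcripts NM_207655 and NM_007912 and the cDNA AK033431. They read the same extracts, so they are not replicates. Repeat spots of the brightest probe on 1 array had an SD of 0.04 to 0.16, and its ratio differed between arrays of a litter with an SD of 0.05 to 0.25, against 1.73 between litters. In litter 116, 3 of the dimmer probes were above background on both Lats2-/- channels and on no Lats2+/+ channel. Their mean Lats2-/- signals were 2.32-fold (A_51_P392242), 2.57-fold (A_52_P674338) and 2.18-fold (A_52_P175190) higher, as lower bounds of the litter mean. A bound of this kind sets the bright mean against the higher of the probe's own signal and the lowest signal well above background. For these 3 probes the own signal was the higher, so the bound is the litter ratio itself and single arrays can lie below it. A further probe (A_52_P5855, cDNA AK049452, 16655638 to 16655697) was above background nowhere. Actc1, a gene of striated muscle, had log2 ratios of -0.41, 3.37 and 0.55. The other 3 of the 4 muscle markers (Myod1, Myog and Des) were above background in no extract. The summed linear signal of the 4, most of it from Actc1, ranged from 11845 to 37856 in Lats2-/- and from 1500.0 to 25894 in Lats2+/+ extracts. In litter 116, 8 of the 13 fibroblast markers were at least 2-fold higher in the Lats2-/- extract, from Col1a2 (1.84) to Dcn (6.22), and 1, Vim (-1.19), at least 2-fold lower. The summed linear signal of all 13 ranged from 233421 to 527223 in Lats2-/- and from 205802 to 437355 in Lats2+/+ extracts, with the highest Lats2-/- and the lowest Lats2+/+ sum in litter 116. The part of these cells in the Egfr ratios was not tested.

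**Figure D2:**
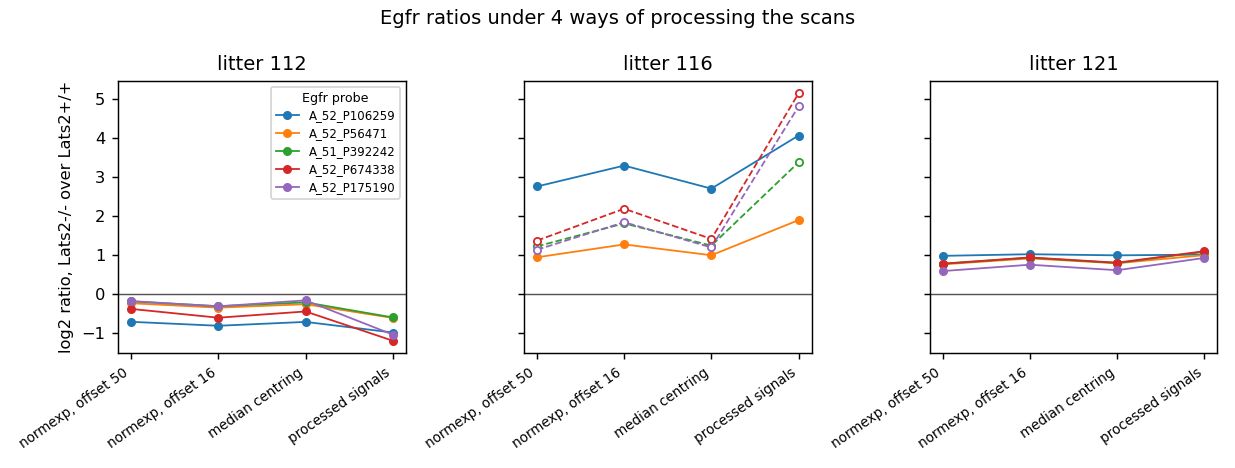
Log2 ratio of 5 Egfr probes in each litter (panels) under 4 ways of processing the scans (x axis), 1 line per probe. Every line lies below 0 in litter 112 and above 0 in litters 116 and 121. The brightest probe reaches 4.05 in litter 116 with the processed signals of the scanner software, and dashed lines with open points are probes with no Lats2+/+ channel above background there, whose ratios are not measured on both sides.

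Erbb2, the receptor without a ligand of its own, differed little. Its brightest probe (A_52_P49250, chromosome 11, 98252879 to 98252938 in mm8, 10 repeat spots) had log2 signals of 9.29, 8.98 and 8.68 in the Lats2-/- extracts and 9.12, 8.51 and 8.73 in the Lats2+/+ extracts. The genotypes overlapped, and in both the extract of litter 112 was the highest. The ratios were 0.17, 0.46 and -0.05, averaging 0.19 ± 0.26 (SD over 3 litters, n = 3) with a limma adjusted p = 0.797, and the 95% interval of -0.21 to 0.60 leaves out a 2-fold difference either way. Without litter 116 the mean was 0.056. A second probe was too dim to be tested.

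Erbb3, a receptor for neuregulins with little kinase activity of its own, was hardly seen. Its 4 probes for NM_010153, between 127973174 and 127988049 on chromosome 10 in mm8, were above background on no array in either genotype. Another probe (A_52_P432949), assigned to Erbb3 through the model transcript XM_972868, lies 2473 bp downstream of the nearest of them and was above background in 3 of 6 extracts, with litter ratios of 0.09, -0.34 and 0.04 averaging -0.07 ± 0.23 (SD over 3 litters, n = 3) with a limma adjusted p = 0.934. In litter 116 it was above background on no Lats2-/- channel, so the ratio is not measured on both sides. The bound there equals the litter ratio, 1.26-fold higher in Lats2+/+, and the 2 arrays gave -0.24 and -0.43. The mean of -0.48 with the processed signals includes that litter. Since the other 4 probes are dark, this value is a level of that probe only.

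Among the ligands, Areg (amphiregulin; A_52_P482897, chromosome 5, 92216264 to 92216323 in mm8) had log2 signals of 6.12, 6.43 and 7.14 in the Lats2-/- extracts and 6.14, 6.38 and 6.21 in the Lats2+/+ extracts. The Lats2-/- extract of litter 121 stood above the other 5, which lay within 0.31 of each other. The probe was dim: it was above background on no array of litter 112, on both arrays of litter 116 in both genotypes, and in litter 121 on 4 of 4 Lats2-/- and 2 of 4 Lats2+/+ channels. Ratios were -0.02, 0.05 and 0.93, averaging 0.32 ± 0.53 (SD over 3 litters, n = 3) with a limma adjusted p = 0.797. In litter 121 all 4 arrays gave between 0.84 and 0.98, and the litter's ratio rose to 1.43 when the offset was 16. The processed signals put it at 2.73 and gave -1.31 in litter 112, where the probe was not above background. Without litter 121 the mean was 0.013. That litter is also the one in which 3 Lats2 probes ran against the label. Lyz2, a myeloid marker, had ratios of 0.05, 0.95 and 3.40, while Ptprc, Emr1 and Tyrobp, of the same list, were above background in no extract. Cd68 (0.36, -0.32 and -0.16) was seen in 4 extracts and Csf1r (0.04, 0.30 and -0.08) in 2, and neither was higher in litter 121. The summed linear signal of the 6 leukocyte markers ranged from 566 to 3814 in Lats2-/- and from 530.0 to 687 in Lats2+/+ extracts. The highest sum, in litter 121, is mostly Lyz2, at a log2 signal of 11.76 against 6.26 or less for each other marker there. In litter 121 Krt19 (1.83) and Cdh1 (1.09, above background only in that Lats2-/- extract), 2 of 8 epithelial markers, were at least 2-fold higher. The other 6 lay between -0.07 (Krt14) and 0.14 (Krt8). Krt19 had its highest ratio in litter 112 (2.42), with 0.37 in litter 116. Of the 13 fibroblast markers, 6 were at least 2-fold lower there, led by Pdgfra (-4.96), and 0 at least 2-fold higher, with Postn at 0.67. Of the epithelial markers, Epcam, Esrp1 and Grhl2 were seen nowhere, and Cdh1, Krt8 and Krt18 in 1 extract each. The summed linear signal of the 8 ranged from 578 to 1000.0 in Lats2-/- and from 588 to 619 in Lats2+/+ extracts. The part of such cells in the Areg ratio was not tested.

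Nrg1 (neuregulin 1, a ligand of ErbB3 and ErbB4) had 5 probes, all above background in all 6 extracts, on chromosome 8 between 33281271 and 33315313 in mm8. The brightest (A_52_P369769, NM_178591) had log2 signals of 8.33, 7.92 and 7.56 in the Lats2-/- extracts and 8.19, 7.29 and 8.30 in the Lats2+/+ extracts. In litter 121 the Lats2-/- extract was the lower, in litter 116 the higher, and the genotypes overlapped. Ratios were 0.14, 0.63 and -0.74, averaging 0.01 ± 0.70 (SD over 3 litters, n = 3) with a limma adjusted p = 0.996. All 5 probes were higher in litter 116 (0.14 to 0.63, 10 of 10 array values above 0) and lower in litter 121 (-0.74 to -0.38, 0 of 20). In litter 112, 4 were higher and A_52_P328064, from the cDNA AK083943, was lower (-0.27). Without litter 121, where 3 Lats2 probes ran against the label, the mean of the brightest probe was 0.39, and without litter 116 it was -0.30.

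Hbegf (heparin-binding EGF-like growth factor; A_51_P181565, chromosome 18, 36631058 to 36631117 in mm8) was bright in every extract, at 10.84, 10.73 and 11.24 in Lats2-/- and 10.44, 11.24 and 11.05 in Lats2+/+ cells. Its arrays within a litter gave ratios with an SD of at most 0.04, yet the litters gave 0.39, -0.52 and 0.19, averaging 0.02 ± 0.48 (SD over 3 litters, n = 3) with a limma adjusted p = 0.988. Tgfa (transforming growth factor alpha; A_51_P415126, chromosome 6, 86240478 to 86240537, 10 repeat spots) had the same signs, with ratios of 0.17, -0.59 and 0.45 averaging 0.01 ± 0.54 (SD over 3 litters, n = 3) with a limma adjusted p = 0.995. It was above background in 3 of 6 extracts. In litter 112 it was seen on 1 Lats2-/- channel and no Lats2+/+ channel, so that sign is not measured on both sides. In litter 116 it was seen on both Lats2+/+ channels and on no Lats2-/- channel, so Lats2+/+ was at least 1.51-fold higher there. In litter 121 all 4 arrays gave a higher Lats2-/- signal. A second Tgfa probe for the same transcript (A_52_P555423), above background in 1 extract, had ratios of 0.11, -0.07 and 0.05.

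Ereg (epiregulin) has 2 probes that do not measure the same region. The probe for NM_007950 (A_51_P171215, chromosome 5, plus strand, 92167833 to 92167894 in mm8) had ratios of 0.19, -0.21 and -0.18, a mean of -0.07 ± 0.22 (SD, n = 3 litters). The brighter probe (A_51_P157223, cDNA AK019057) lies on the minus strand 40686 bp away and had ratios of -0.20, 0.54 and -0.56, averaging -0.07 ± 0.56 (SD over 3 litters, n = 3) with a limma adjusted p = 0.965. With the processed signals its mean was -0.34. The 2 probes differed in sign in litters 112 and 116, so no direction for Ereg is given. Btc (betacellulin) has 2 probes on chromosome 5 and was above background on no array in either genotype.

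**Figure D3:**
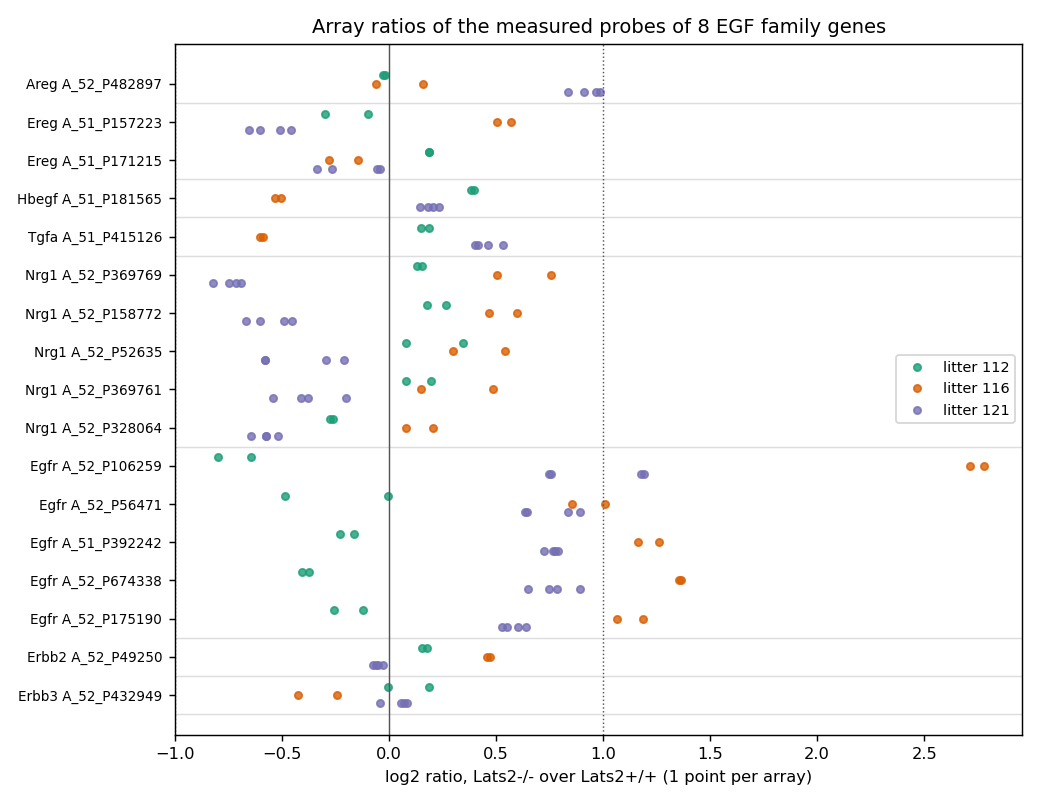
Log2 ratio of Lats2-/- over Lats2+/+ on each array (x axis; dotted line at 1, a 2-fold difference) for the 17 probes above background (rows), coloured by litter. Litters overlap on some probes, such as that of Areg, where litters 112 and 116 lie together near 0. Egfr reaches 2.78 on an array of litter 116 on its brightest probe, and Nrg1 lies left of 0 in litter 121 for all 5 probes.

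The spread was larger between litters than between arrays of a litter for each of the 8 genes. Over the 8 genes, the SD of a ratio between arrays of a litter ranged from 0.01 to 0.25, and the SD between litters from 0.23 for Erbb3 to 1.73 for Egfr. The Lats2+/+ extracts also differed among themselves, by 2.82 in log2 signal for Egfr, 1.01 for Nrg1 and 0.80 for Hbegf, against 0.13 for the brighter Ereg probe. The Lats2-/- extracts ranged over 2.64 for Egfr, 1.02 for Areg and 1.07 for that Ereg probe. Since those arrays carry 1 pair of extracts, their agreement is technical.

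Other genes of the pathway were taken from a list of 63, of which 57 had a probe above background: 35 were higher (61.4%, against 52.9% of all genes) and 22 lower in the mean over litters, with a median log2 ratio of 0.09 against 0.01 over all 14791 genes. Without litter 112 the list's median was 0.03. At an unadjusted p under 0.05, 9 were higher (15.8%, against 4.14% of all genes) and 0 lower (against 3.45%), and 0 passed the adjusted threshold. The list was chosen with earlier results of these data known, so its counts are a description. By group the 9 were 0 of 10 shedding genes, 2 of 10 adaptors, 1 of 10 RAS to ERK kinases, 3 of 14 receptor inhibitors and 3 of 11 early outputs of ERK signalling, and differences between groups were not tested.

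Fos, Egr1 and Dusp4 had the largest mean ratios among the early outputs. Fos, an immediate early transcription factor, had log2 ratios of 5.43, 2.19 and 1.24, a mean of 2.95 ± 2.20 (SD, n = 3 litters). Egr1, another such factor, had 4.39, 2.93 and 0.81, a mean of 2.71 ± 1.80. Dusp4, an ERK phosphatase, had 1.17, 1.44 and 1.81, averaging 1.48 ± 0.32, at a limma p of 0.00104 (adjusted p = 0.634). The other 8 outputs had an unadjusted limma p of 0.0593 (Myc) or more. Their mean ratios were -0.94 for Etv4, -0.89 for Myc, -0.75 for Fosl1, -0.50 for Etv5, -0.38 for Plaur, 0.09 for Dusp6, 0.31 for Phlda1 and 0.67 for Ier3.

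Of the receptor inhibitors, Errfi1, which binds the EGFR kinase and blocks it, had ratios of 1.75, 1.10 and 0.38 (averaging 1.08 ± 0.69, SD over 3 litters, with a limma adjusted p = 0.711). Lrig2 had a mean of 0.45 ± 0.22 and Spry1, an inhibitor of the RAS pathway, 0.38 ± 0.17. Among the adaptors, Gab1 had a mean of 0.51 ± 0.28 and Plcg1, a phospholipase recruited by the receptors, 0.47 ± 0.27, and of the kinases Mapk3, which encodes ERK1, had 0.54 ± 0.24. Erbb4, the receptor outside the 9, had ratios of -0.03, -0.04 and -0.03 on the brightest of its 4 probes, which matched no RefSeq transcript. Egf had ratios of 0.07, 0.07 and 0.43 on 1 dim probe, with log2 signals from 6.28 to 6.71.

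**Figure D4:**
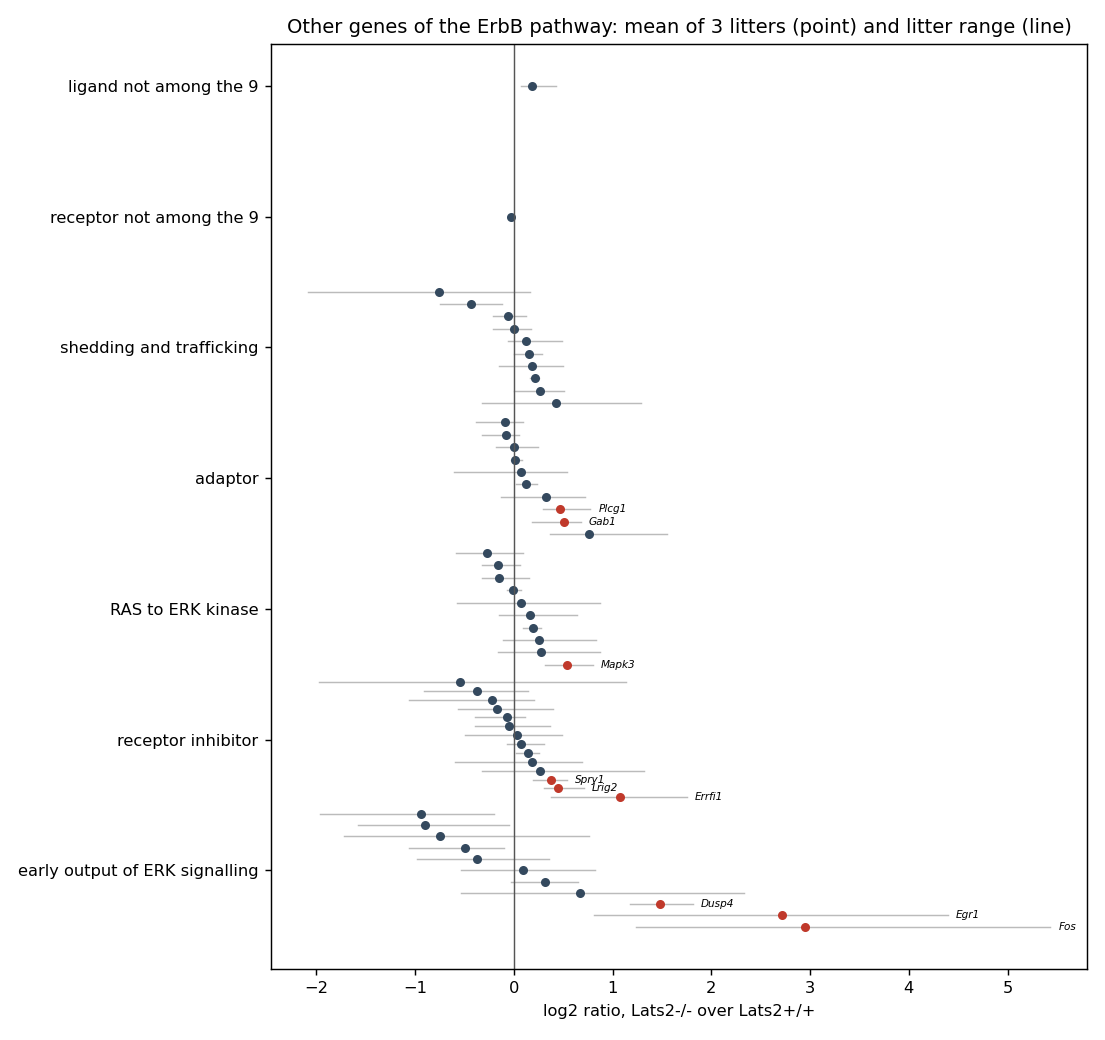
Mean log2 ratio of Lats2-/- over Lats2+/+ over 3 litters (points) and the range of the litters (lines) for 57 other genes of the pathway by group. Genes with an unadjusted p under 0.05 in limma (red, named) all lie right of 0, from Spry1 at 0.38 to Fos at 2.95.

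The genes whose log2 signals over the 6 extracts ran most like those of Areg and Egfr, the ligand and the receptor with the smallest p, were sought among 3152 genes with an SD of at least 0.5. Closest to Areg were Slpi (Pearson r of 0.995), Asb7 (0.993) and Kif21b (0.989), and closest to Egfr were Zfp46 (0.990), Sema3a (0.979) and Luzp1 (0.975). The 6 extracts come in pairs that share a litter and arrays, and Areg rests on 1 high extract, so these are descriptions. Slpi had log2 signals of 6.19, 7.41 and 9.85 in the Lats2-/- extracts against 6.07, 6.90 and 6.64 in the Lats2+/+ extracts.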

How the data were processed

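RNA from MEFs of 3 litters was measured on 8 Agilent 2-colour arrays. Per the file headers, scans were extracted with Agilent Feature Extraction 10.7.3.1 (10.5.1.1 in the submitters' processing notes). The deposited scanner files hold spot intensities, which were used here, and log10 ratios, as does the authors' value table, which equals those ratios turned to Lats2-/- over Lats2+/+ (largest difference 0.00500). Probe coordinates are those of the files (mm8).

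Intensities were background-corrected with normexp (offset 50) and normalized by loess within each array, outlier spots and controls were left out, and repeat spots and arrays of a litter were averaged. Signals per extract follow Aquantile scaling. An extract counted as above background on most of its arrays; probes needed 2 of 3 extracts of either genotype. The offset pulls ratios of dim probes toward 0. Litter ratios were tested against 0, two-sided, with limma 3.58.1 in R 4.3.3 (Benjamini-Hochberg over 22642 probes, threshold 0.05), and a gene is its brightest kept probe. Pairing is built in, since both extracts of a litter share its arrays. The number of litters limits precision. Where nothing says cultures were independent beyond the litter, p-values measure the spread between litters. The fit was tested on simulated data. Named were all 9 genes, list genes with an unadjusted p under 0.05 or 2-fold in 1 direction in every litter, Lats2, Ctgf and Cyr61, and the 3 genes most like 1 ligand and 1 receptor; the remaining YAP targets and ERK outputs complete their lists, and single markers, such as Actc1, Lyz2 and Dcn, were picked with their values in view. The genes and lists were chosen with earlier results of these data known.

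Alternatives were a normexp offset of 16, the processed signals, the value table, median centring, no or a stricter filter, leaving out each litter, no replicate block, arrays as observations with litter (with or without a dye term) or, added after seeing the data, slide as a random block, the methods' t-test, and the mean over a gene's probes.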

Additional observations from a re-analysis of the deposited data

How the results depend on the processing

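Over 117 recalculations of the mean log2 ratios of the 8 genes, 99 kept their direction, 18 turned it and 0 passed the adjusted threshold. Egfr, Areg and Erbb2 kept theirs in every alternative run; Egfr ranged from 0.12 (without litter 116) to 1.86 (without litter 112), Areg fell to 0.013 without litter 121 and Erbb2 to 0.056 without litter 116. The lowest adjusted p was 0.178, for Areg with slide as a random block over arrays (unadjusted p of 0.0200 in limma), and 0.426 for Egfr. Means near 0 turned sign, and the cause was not tested. With the processed signals the mean was -0.014 for Hbegf, -0.0051 for Nrg1 and -0.190 for Tgfa, and with the deposited value table -0.0144, -0.0053 and -0.19. Median centring gave -0.017 for Hbegf, a normexp offset of 16 gave -0.0089 for Tgfa, slide as a random block gave -0.18 for Nrg1, and averaging all its probes gave -0.012. Leaving out a litter, the means ranged from -0.38 to 0.17 for Ereg, -0.16 to 0.29 for Hbegf, -0.21 to 0.31 for Tgfa, -0.30 to 0.39 for Nrg1 and -0.15 to 0.067 for Erbb3.

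The count of EGF family genes with a ratio of 2-fold or more and an unadjusted p under 0.05 was 0 in every alternative but 1, without litter 112, where Egfr made it 1 (range 0 to 1). That run omits the only litter in which Egfr was lower, and 352 of 22642 probes met the threshold in it. The median of the pathway list ranged from 0.027 (without litter 112) to 0.103 with a litter left out, and was 0.0455 with median centring and 0.0478 with the mean over a gene's probes, against 0.0931. Of all probes, 189 met that threshold. This became 305 with an offset of 16, 546 with processed signals, 545 with the value table, 112 with no replicate block, 414 with litter as a random block, 399 with a dye term added, 441 with slide as a random block, 71 by the methods' t-test, and 260 to 373 over the runs that omit 1 litter. The adjusted count of 0 became 341, 203 and 717 in the 3 fits over arrays, which count arrays of the same extracts as observations.

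Slide as a random block over 3 litter ratios could not be fitted. Areg and Tgfa could not be given under the strict filter, since their probes were not above background in all extracts; the same held for the Erbb3 probe. Dim probes limit Areg, Tgfa and Erbb3, and 3 litters leave intervals that reach 2-fold for Egfr.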
